A study of Mus musculus with 12 samples.

Results

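The genes described here were 182 of the 18844 genes measured on whole gonad arrays, chosen because their RNA was higher in embryonic ovaries lacking both Smad4 and Stra8 function (double knockout, DKO) than in control ovaries and in control testes. They were picked by measured values. Each had a probe well above background on all 3 DKO arrays. Its DKO mean exceeded the control ovary mean by at least 1 on the log2 scale and the control testis mean by about 1.5-fold or more, and its lowest DKO array lay above the highest array of both control groups. A total of 251 genes (1.33%) met these value criteria, of which 32 had no gene name, 36 were in the 2 gene lists that the study tabulated and 1 was among the genes set aside by name, leaving 182. Of the 182, 173 were protein coding and 7 were long noncoding RNAs in the RefSeq annotation. All values that set DKO ovaries against either control are therefore descriptions of the choice and carry no test.

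RNA was measured in one pair of E14.5 mouse gonads per array, with 3 biological replicates in each of 4 groups, on a mixed genetic background. All pregnant females had received tamoxifen at E9.5 and E10.5, which activates MerCreMer, a recombinase driven here by the germ cell gene Stella (Dppa3) and acting with variable efficiency. The control testes and control ovary 1 were Smad4 Flox/+ StellaMerCreMer Stra8+/-, control ovary 2 was Smad4 Flox/+ Stra8+/- and control ovary 3 was Smad4 Flox/Flox Stra8+/-, the last 2 without Cre. The Smad4 (Stella) ovaries were Smad4 flox/flox MerCreMer Stra8+/-, and the DKO ovaries were Smad4 flox/flox MerCreMer Stra8-/-. Every control thus already carried 1 mutant Stra8 allele, and no group lacked Stra8 alone. Levels are given as log2 signal relative to the 75th percentile of the same array, so that 0 is that percentile, and a level of one gene cannot be set against that of another. Fewer cells of a type and less RNA per cell cannot be told apart in such whole gonads.

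The 75th percentile of signal ran from 476 on control ovary 1 to 997 on Smad4 (Stella) ovary 1. Slide 1 held the control testes and control ovary 1, slide 2 the other 2 control ovaries and DKO ovaries 1 and 2, and slide 3 the Smad4 (Stella) ovaries and DKO ovary 3. Stra8 was at 5.28 to 5.61 in the DKO ovaries against 6.16 to 6.71 in the control ovaries, and Smad4 was at 1.96 to 2.19 against 1.99 to 2.35, so the whole gonad signal did not check the Smad4 label. Whether the Stra8 probe lies in the disrupted part of the gene is not given in the sources used here. The 6 pregranulosa markers summed, on a linear scale, to 70.9 to 84.8 in DKO ovaries, 66.9 to 79.7 in control ovaries and 13 to 16 in testes, and the 7 Sertoli markers summed to 2.01 to 2.54, 2.30 to 2.36 and 67.7 to 80.8. None of these 13 genes, nor of the 4 fetal Leydig markers tested, was called different between DKO and control ovaries (limma adjusted p below 0.05 and at least 1.5-fold, a call made higher in 6.69% and lower in 7.98% of all genes). The 6 germ cell markers summed to 103 to 132 in DKO ovaries, 69.2 to 95.2 in control ovaries, 65.6 to 79.9 in Smad4 (Stella) ovaries and 83.3 to 100.5 in testes. This sum was thus highest in DKO ovaries, like the genes described here. In Smad4 (Stella) ovaries it overlapped the control ovaries and reached lower, while those genes had a median difference of 0.49 above control ovaries. The part of this sum in their levels was not tested. Of the 6, Dppa3 and Tdrd1, both in the study's lists, were called higher in DKO ovaries by limma and Kit was chosen for that difference, while Ddx4, Mael and Dazl, with differences of 0.14, 0.033 and -0.081 on the log2 scale, were not called.

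Fetal germ cells pass through a state in which much of their DNA methylation is erased and in which genes of pluripotent cells remain active. In the ovary, retinoic acid then induces Stra8, which is needed for entry into meiosis, while in the testis the germ cells stop dividing and take a male course. Smad4 is the partner that receptor-activated Smads of the TGF-beta, activin, nodal and BMP pathways share.

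Among the 182 genes, the DKO mean lay 1.0 to 4.87 above the control ovary mean (median 1.47, or 2.77-fold) and 0.60 to 4.40 above the control testis mean (median 1.40, or 2.64-fold). Testes were the higher control for 114 genes and control ovaries for 68. The median DKO level was -1.72 over the 182 genes and -1.25 over all genes, and the median control ovary level was -3.47. All 3 arrays were well above background for 137 genes in control ovaries and for 154 in testes, while 14 and 6 genes respectively had no array of that group above background. For these a lower bound of the fold is given, taken against the lowest signal that passed as above background on each array. With such groups at their bound, the medians over control ovaries and testes were 1.46 and 1.40, and 22 genes lay at least 2 and 3 genes at least 3 above the higher control. For genes above background on only 1 or 2 arrays of a control group, among them Cd72, Tbx21 and Cd7 (2 of the control ovaries) and Diras1, Gpr176, Dlx1, Kcns1 and Lefty1 (1 of them), the folds given rest partly on signal not above background. Just inside the limits, Acsm3 had its lowest DKO array at 0.117 and its highest control array at 0.115, and Dctd and Pctp exceeded control ovaries by 1.0 and 1.01. Just outside, Nkain1 fell short with 0.9996 over control ovaries, Nacc2 with 0.57 over testes, and Arntl2 with a lowest DKO array of -4.58 against a highest control array of -4.57.

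**Figure D1:**
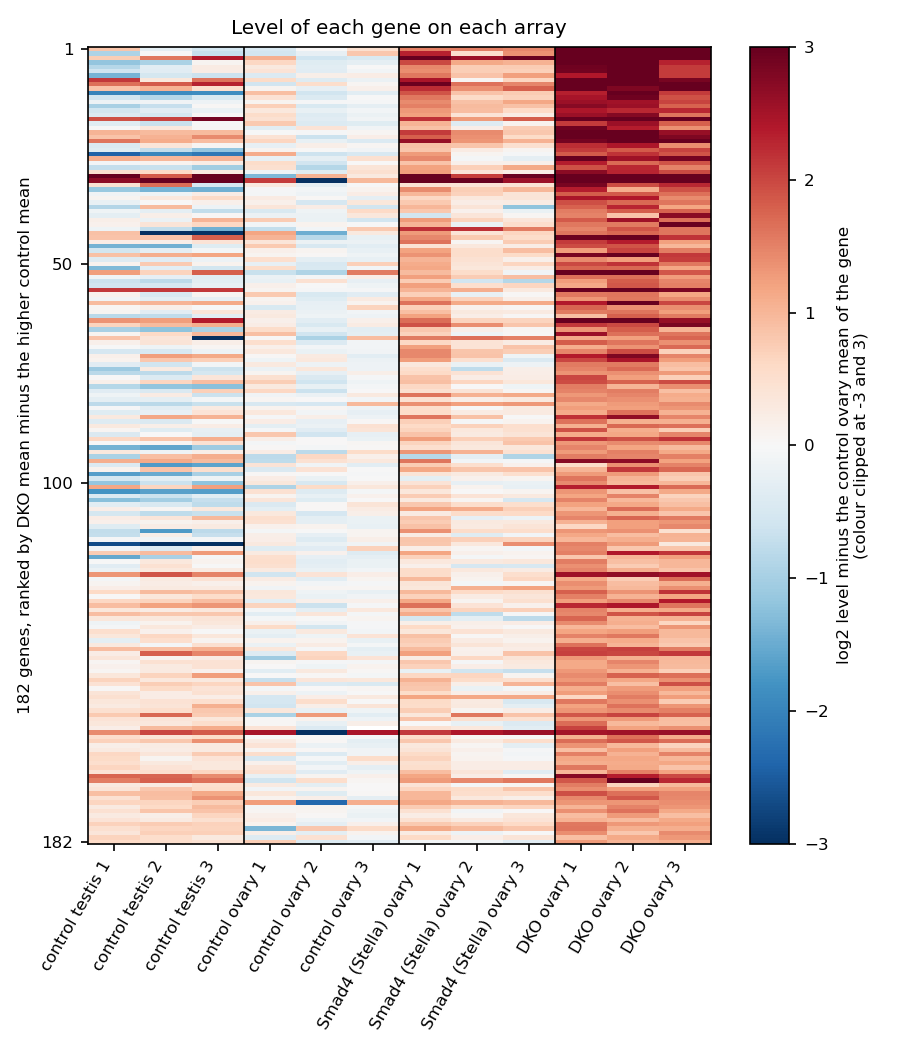
Level of each of the 182 genes on each of the 12 arrays, as the log2 difference from the gene's control ovary mean (colour, clipped at -3 and 3), with genes in rows ranked by the DKO mean minus the higher control mean and arrays in columns by group. The DKO columns lie above all control columns by construction, and among the Smad4 (Stella) columns array 1 is the highest in 157 genes.

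Irx1, a homeobox gene, stood first among the genes measured on both sides. Its DKO levels were -0.93, -0.09 and -0.68, its control ovary levels -4.60, -4.30 and -3.23 and its testis levels -4.97, -4.04 and -4.74. The DKO mean was 11.1-fold above control ovaries and 16.2-fold above testes, and all DKO arrays lay well clear of the highest control array. In Smad4 (Stella) ovaries, Irx1 was at -1.74, -3.50 and -2.68, of which array 1 lay well above and array 2 within the control range.

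Lpar3, a receptor for lysophosphatidic acid, had no control array well above background. Its DKO arrays were at -1.93, -1.96 and -3.02, its control ovaries at -6.92, -6.43 and -5.95, and its testes at -5.60, -6.72 and -6.98. This corresponds to at least 9.72-fold over control ovaries and at least 11.1-fold over testes. The 3 Smad4 (Stella) arrays were close together at -4.93, -4.89 and -4.96, between the control and DKO ranges. Ephx2, the soluble epoxide hydrolase, was far above background in every group, with little spread. Its DKO levels were 4.61, 4.56 and 4.06, its control ovary levels 2.12, 2.01 and 2.01 and its testis levels 1.90, 1.94 and 1.90. Its fold over control ovaries was 5.15. Smad4 (Stella) ovaries held 3.46, 2.93 and 3.20 and overlapped neither controls nor DKO.

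Phf11a and D14Ertd668e (now Phf11d), PHD finger genes lying next to each other on chromosome 14, exceeded control ovaries by 8.66-fold and 5.08-fold. Related copies of this family exist, and cross-hybridisation between them was not tested. Other genes with a large rise over the higher control were Aurkc (6.71-fold over that control), a kinase of meiotic chromosome segregation, the B cell surface protein gene Cd72 (5.81-fold), Prap1 (5.55-fold), the small GTPase Diras1 (4.30-fold), and Gm7789, Gm5128, Epp13 and 1700063H04Rik (4.45-fold to 6.68-fold), for which no role is given here.

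**Figure D2:**
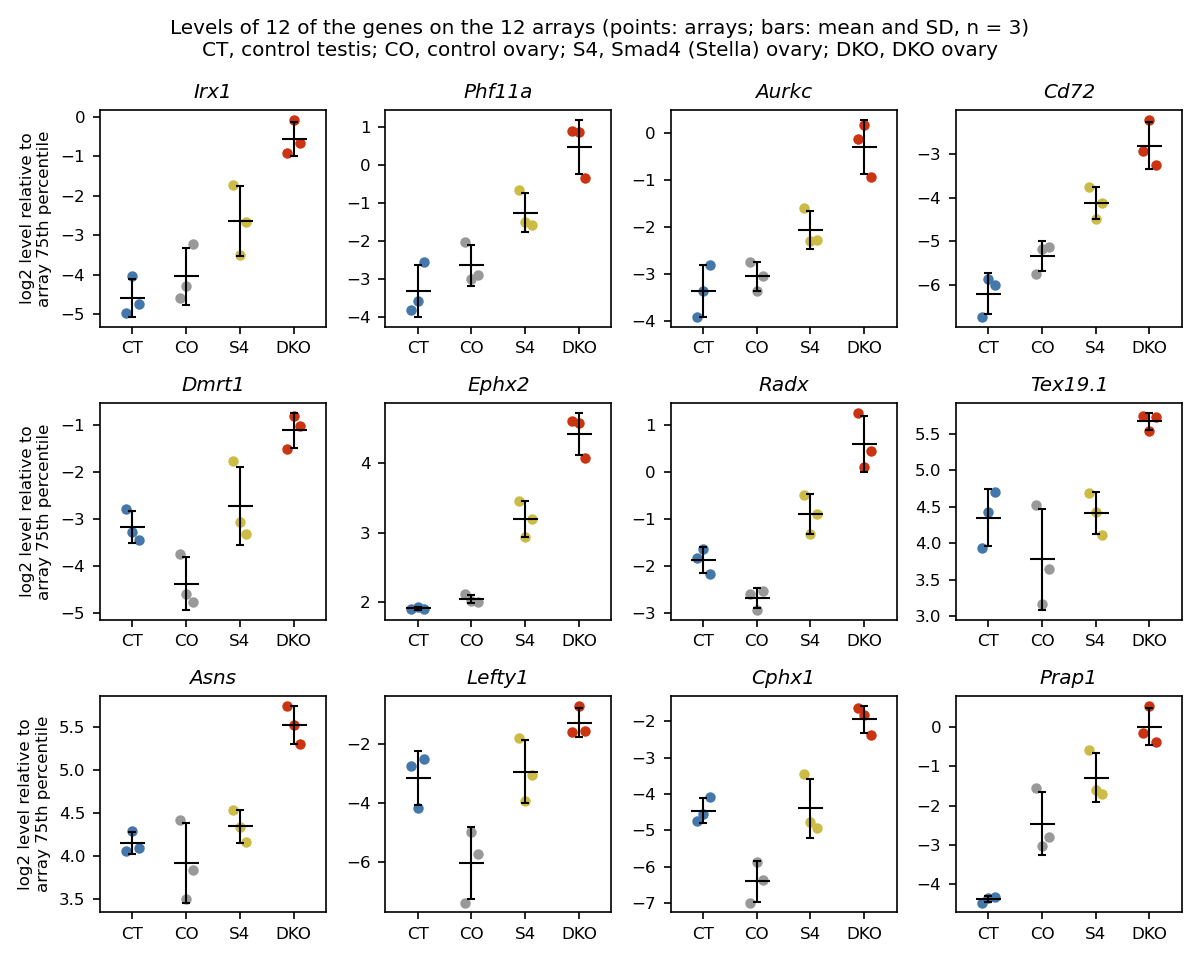
Levels on each array (log2 signal relative to the array's 75th percentile) of 12 of the genes in control testes (CT), control ovaries (CO), Smad4 (Stella) ovaries (S4) and DKO ovaries, with points for arrays and bars for the mean and SD of 3 arrays. The DKO points lie above every control point in each panel, and the Smad4 (Stella) points of Ephx2 and Radx lie between.

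Of the 16 genes of the germ line, meiosis and transposon defence, 10 were X-linked. Radx, which encodes a single-stranded DNA binding protein that acts at replication forks, had DKO levels of 1.26, 0.10 and 0.46, control ovary levels of -2.60, -2.93 and -2.53 and testis levels of -1.83, -1.63 and -2.17. The separation was 9.80-fold from control ovaries and 5.59-fold from testes. Its probe lies at chromosome X, 136088926 to 136088985, in the mm9 coordinates of the array design. The 300 bases around the Radx start (chrX:139480117-139480416, plus strand, GRCm38.p6, from RefSeq) are shown because they hold, in capitals, the sequence CNCCTCAG that is associated with Stra8 binding, 166 bases upstream. This sequence was in 5.37% of the promoters of the set, against 9.31% of those of tested genes, and a match is not a bound site.
Radx: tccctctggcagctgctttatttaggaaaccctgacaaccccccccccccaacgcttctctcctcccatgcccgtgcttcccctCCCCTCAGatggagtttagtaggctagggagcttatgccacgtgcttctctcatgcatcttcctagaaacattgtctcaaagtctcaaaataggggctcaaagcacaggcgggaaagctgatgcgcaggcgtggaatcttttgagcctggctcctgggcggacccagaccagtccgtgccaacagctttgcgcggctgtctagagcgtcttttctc

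The X-linked Magea genes, members of the cancer/testis antigen family that is silent in most somatic tissues, were 4 in number. Magea1 stood at -1.01, -0.60 and -1.94 in DKO ovaries, against -3.35, -3.12 and -3.71 in control ovaries and -3.24, -2.14 and -2.26 in testes. Magea3, Magea5 and Magea6 exceeded control ovaries by 4.27-, 3.74- and 3.36-fold. DKO ovary 3 was the lowest of the DKO arrays in all 4, as it was in 96 of the 182 genes. Their probes are distinct, the most alike pair (Magea1 and Magea3) matching at 40 of 60 bases, but matches to other copies of the family were not tested. Usp26, a testis deubiquitinase gene on the X chromosome, and Xlr5a, of a lymphocyte-regulated X-linked family, exceeded control ovaries by 5.58- and 2.38-fold.

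Esx1, an X-linked homeobox gene of placenta and male germ cells, had close DKO replicates. Its DKO levels were -2.45, -2.33 and -2.47, its Smad4 (Stella) levels -4.44, -4.83 and -4.48, its control ovary levels -5.59, -4.58 and -4.79 and its testis levels -3.67, -3.10 and -3.49. The Smad4 (Stella) ovaries overlapped the control ovaries and the testes lay between them and the DKO ovaries. The DKO minus Smad4 (Stella) difference was 2.17 ± 0.24 (SE, limma adjusted p = 0.00046). Pld6 (MitoPLD), a mitochondrial protein needed for piRNA production, exceeded control ovaries 2.29-fold.

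The 4 Magea genes, Usp26 and Xlr5a came from a list of 27 tested X-linked Mage, Xlr and related genes. Of the 21 others, which the rule did not choose, limma called 5 higher in DKO than in control ovaries and 4 lower. The 8 tested Rhox homeobox genes of the X chromosome held no such gene, with 2 called higher and 4 lower. The 11 tested Nlrp and Pramel genes also held none, with 3 higher and 2 lower. Tex19.1, which restrains retrotransposons in germ cells, reached 5.74, 5.54 and 5.72 in DKO ovaries and was nowhere above 4.70 on the control arrays. Kit, the receptor for stem cell factor on germ cells, was the only germ cell marker in the set, with DKO levels of 0.36, 0.55 and 0.64 against -0.21, -0.95 and -0.87 in control ovaries.

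Of the 14 genes of pluripotency and the early embryo, Lefty1 encodes a secreted inhibitor of nodal signalling. Its DKO levels were -1.59, -0.72 and -1.55 and its control ovary levels -7.36, -4.97 and -5.73, only 1 of the 3 control ovary arrays being above background. Testes held it at -2.73, -4.18 and -2.51, so that the DKO ovaries exceeded testes by 3.62-fold. Esrrb, an orphan nuclear receptor of pluripotent cells, had DKO levels of -0.61, -0.25 and -1.38, against -2.53, -4.36 and -3.79 in control ovaries and -2.69, -2.70 and -1.76 in testes. Zfp42 (Rex1), a zinc finger marker of pluripotent cells, separated less, by 2.47-fold, and its lowest DKO array (1.09) lay just above testis 3 (0.91) and control ovary 1 (0.81).

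The homeobox gene Cphx1 was not above background in any control ovary (-6.99, -5.87 and -6.36), was at -4.74, -4.56 and -4.09 in testes and reached -1.65, -1.84 and -2.37 in DKO ovaries, at least 12.3-fold over control ovaries. Its neighbour Duxbl1, a double homeobox gene, stood 2.15-fold above control ovaries. Spic, an Ets family factor, exceeded control ovaries by 12.1-fold and testes by 2.78-fold, and Bmp8b, a BMP ligand, by at least 4.15-fold over control ovaries. Besides Esrrb and Zfp42, 13 pluripotency and primordial germ cell genes were tested, of which limma called 9 higher in DKO than in control ovaries and none lower (median difference 1.71). Of the 13, 10 were in the study's tabulated lists of germ cell genes, which its methods drew from other arrays of an earlier stage.

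The 22 transcription factor and zinc finger genes included the DM domain genes Dmrt1 and Dmrt3. Dmrt1, which governs testis maintenance and germ cell mitosis and meiosis, had DKO levels of -1.52, -0.80 and -1.02, control ovary levels of -3.74, -4.61 and -4.79 and testis levels of -2.78, -3.27 and -3.45. The DKO level was 9.64-fold that of control ovaries and 4.17-fold that of testes. Dmrt3, its neighbour on chromosome 19, exceeded control ovaries 4.06-fold. Zscan5b, not above background on any control array, stood at least 3.87-fold over control ovaries and at least 4.20-fold over testes, and Zim2, an imprinted zinc finger gene, at least 5.81-fold over control ovaries.

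Pou3f1 (Oct6), a POU domain factor of epiblast and Schwann cells, was well above background in every group. Its DKO levels were 3.32, 3.06 and 3.24, its Smad4 (Stella) levels 2.06, 1.45 and 1.29, its control ovary levels 1.33, 1.21 and 1.12 and its testis levels 0.86, 0.47 and 0.06. Smad4 (Stella) ovaries 1 and 2 lay above the control ovaries and ovary 3 within their range, and the 3 DKO arrays lay close together. Klf8, an X-linked Krüppel-like factor, had DKO levels of 3.04, 2.78 and 2.53 against control ovary levels of 1.61, 1.53 and 1.62, and lay 5.81-fold above testes. Among factors that specify other lineages, Mesp1, of early mesoderm, exceeded control ovaries 2.92-fold, Dlx1, of forebrain, 2.75-fold and Nkx2-5, of heart, 2.52-fold. Emx1, of the cortex, exceeded them 2.03-fold, and its Smad4 (Stella) arrays (-4.56, -4.94 and -5.05) overlapped or lay below the controls.

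Of 11 tested retinoic acid response genes outside the set, 8 had the higher mean in DKO ovaries (median 0.07 over control ovaries) and limma called 1, which was lower. Of 29 Hox genes outside the set it called 1 higher and 1 lower. Phox2a, a factor of sympathetic neurons, exceeded control ovaries 2.29-fold and was the only sympathoadrenal marker of the set. Those markers summed to 0.35 to 0.47 in DKO ovaries and 0.23 to 0.38 in control ovaries against 0.93 to 1.19 in testes, and their part in the Phox2a level was not tested.

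Besides Lpar3 and Diras1, the 17 ligand, receptor and signalling genes held parts of several pathways. Prok2, a secreted prokineticin, was above background in no control ovary and had DKO levels of -3.48, -4.51 and -4.19, at least 2.88-fold higher. Chrdl1, an X-linked antagonist of BMP ligands, had DKO levels of -1.94, -2.84 and -2.55 against control ovary levels of -4.51, -5.08 and -4.81, a 5.12-fold difference, with its Smad4 (Stella) levels together at -4.36, -4.40 and -4.37. These average 2 probes, which exceeded control ovaries by 1.35 and 3.36 on the log2 scale. The second had means of -7.34 in control and -6.62 in Smad4 (Stella) ovaries, below any signal that passed as above background there. The 5.12-fold thus rests partly on signal not above background. Dll1, a Notch ligand, had DKO levels of 0.69, 0.18 and 0.55 against -0.56, -1.07 and -0.90 in control ovaries, and its Smad4 (Stella) ovaries (-0.23, -0.84 and -0.99) overlapped the latter. In the Wnt pathway, the receptor gene Fzd10 exceeded control ovaries 2.22-fold and Frat2, an inhibitor of glycogen synthase kinase, 2.38-fold.

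Among the 12 carriers, channels and lipid transfer proteins, Slc1a1, a glutamate and cysteine transporter, had DKO levels of -3.13, -3.17 and -3.96 and control ovary levels of -7.41, -8.18 and -7.97, none of them above background, which makes it at least 4.48-fold higher. Mup6, of the major urinary protein family whose many near copies make its probe uncertain, stood at least 6.82-fold over control ovaries. The set held 6 solute carrier genes, and of the 274 others tested limma called 30 higher in DKO than in control ovaries and 16 lower. It also held the channel genes Kcnk5 and Kcns1, and of 133 ion channel genes outside it 7 were called higher and 4 lower. Gpr176 was the only one from a list of orphan, adhesion, odorant, pheromone and taste receptor genes, a list that did not hold Lpar3, and of the 127 others 1 was called higher and 5 lower. Zfp42, Zfp710 and Zfp941 belonged to the Zfp genes, and of the 334 others 12 were called higher and 35 lower.

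Of the 19 enzymes of metabolism, Nat8l, which makes N-acetylaspartate, and Hal, which breaks down histidine, exceeded control ovaries 3.97-fold and 3.84-fold. Ddc, the decarboxylase of dopamine and serotonin synthesis, had DKO levels of -2.50, -1.94 and -2.29 against control ovary levels of -3.98, -3.29 and -3.99. Of its Smad4 (Stella) levels, ovary 1 lay above and ovaries 2 and 3 (-4.33 and -4.62) below the control ovaries. The Ddc levels average 2 probes, which exceeded control ovaries by 0.76 and 2.26 on the log2 scale. The second had means of -6.23 in control and -6.48 in Smad4 (Stella) ovaries, below any signal that passed as above background there. Cyp19a1, aromatase, the enzyme of oestrogen synthesis, was dim, with DKO levels of -3.74, -4.37 and -2.52, control ovary levels of -5.41, -5.39 and -4.88 and testis levels of -5.53, -5.05 and -5.18. Only 2 of the 3 arrays were above background for it in each of the other 3 groups. Pipox, which oxidises pipecolic acid, was tight within groups at -0.53, -0.51 and -0.59 in DKO ovaries against -1.81, -2.11 and -1.71 in control ovaries.

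A trio of genes induced by amino acid shortage through the factor Atf4 were in the set. Asns, asparagine synthetase, had DKO levels of 5.75, 5.52 and 5.30, control ovary levels of 4.42, 3.51 and 3.84 and testis levels of 4.06, 4.30 and 4.09, a 3.03-fold and a 2.59-fold separation. Chac1, which breaks down glutathione, was at -1.43, -1.87 and -1.06 against -2.88, -3.34 and -3.44 in control ovaries and -2.63, -2.27 and -2.33 in testes. Trib3, a pseudokinase that restrains the response, was at -1.79, -1.59 and -1.79 against -3.21, -3.43 and -3.75 in control ovaries and -2.77, -2.65 and -2.08 in testes. In all 3 the DKO arrays lay together above both controls.

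The remaining genes of that list did not follow as a group. Of the 7 others tested, Phgdh, of serine synthesis (0.64 on the log2 scale), was called higher in DKO ovaries than in the control ovaries by limma, and none was called lower. The other 6, not called, lay between -0.35 (Ddit3) and 0.14 (Psat1). The promoters of the 3 (Asns at chr6:7693160-7693459, minus strand, Chac1 at chr2:119350992-119351291, plus strand and Trib3 at chr2:152344011-152344310, minus strand, GRCm38.p6, from RefSeq) are shown because each holds TGATGNAA, the composite C/EBP and Atf element, on either strand, in capitals.
Asns: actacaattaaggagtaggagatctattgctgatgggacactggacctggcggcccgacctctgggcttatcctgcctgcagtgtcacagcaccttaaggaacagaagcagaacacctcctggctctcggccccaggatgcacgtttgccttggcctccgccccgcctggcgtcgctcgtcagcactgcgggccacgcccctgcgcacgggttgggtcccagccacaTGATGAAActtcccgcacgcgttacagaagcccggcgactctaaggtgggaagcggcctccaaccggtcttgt
Chac1: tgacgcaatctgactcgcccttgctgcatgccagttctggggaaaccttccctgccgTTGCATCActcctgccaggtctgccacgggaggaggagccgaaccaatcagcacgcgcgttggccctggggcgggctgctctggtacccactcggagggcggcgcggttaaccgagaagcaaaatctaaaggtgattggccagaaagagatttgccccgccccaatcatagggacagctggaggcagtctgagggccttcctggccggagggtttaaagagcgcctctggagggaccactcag
Trib3: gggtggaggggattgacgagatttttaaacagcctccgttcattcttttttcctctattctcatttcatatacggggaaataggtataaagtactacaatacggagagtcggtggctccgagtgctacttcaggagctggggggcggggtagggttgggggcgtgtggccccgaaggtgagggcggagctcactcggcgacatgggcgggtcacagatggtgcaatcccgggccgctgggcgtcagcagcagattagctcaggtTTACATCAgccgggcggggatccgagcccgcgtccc

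In the promoters of Asns, Chac1 and Trib3, the match began 23 bases before, 193 bases before and 14 bases after the start. Among the 149 genes of the set with a RefSeq promoter, 13 (8.72%) held this motif on either strand, against 2.28% of the 12079 promoters of tested genes. The motif was searched after the genes had been seen.

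**Figure D3:**
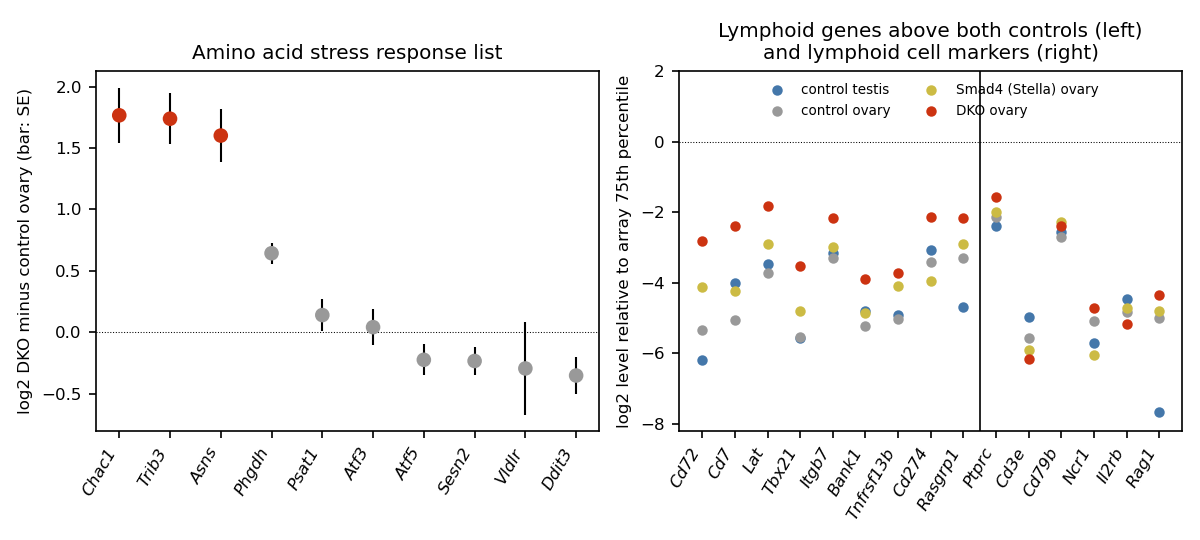
Left, log2 difference between DKO and control ovaries for the 10 tested genes of the amino acid stress list, with bars for the limma standard error and red points for the 3 genes described here. Right, mean level per group (log2 relative to the array's 75th percentile) of lymphoid genes of the set and of lymphoid cell markers, of which Ptprc, Cd79b, Ncr1 and Rag1 have the higher and Cd3e and Il2rb the lower mean in DKO than in control ovaries.

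The 16 lymphoid and other immune genes included T cell signalling genes. Cd7, a T cell surface protein gene, stood at -2.21, -2.06 and -2.93 in DKO ovaries against -4.98, -5.01 and -5.17 in control ovaries and -4.17, -3.97 and -3.87 in testes. Lat, the adaptor of the T cell receptor, separated by 3.73-fold from control ovaries and Tbx21 (T-bet) by 4.05-fold. Cfd, the complement factor D gene, was not above background in any testis, and its DKO mean stood at least 13.1-fold over testes and 3.90-fold over control ovaries. Of 7 lymphoid markers tested, a list added after the genes had been seen, 4 had the higher and 3 the lower mean in DKO than in control ovaries (median difference 0.30), and Rag1 was called higher by limma. Cd3e, a defining T cell marker, was above background on only 1 of 3 arrays in either group. Their summed level was 0.62 to 0.92 in DKO ovaries, highest in DKO ovary 1, and 0.52 to 0.59 in control ovaries, and the macrophage sum was 2.13 to 4.52 against 1.69 to 2.32. The part of either in the immune genes was not tested. None of 10 interferon response genes and none of 12 p53 targets tested was in the set. The interferon genes had 0 called higher and 2 lower, and the p53 targets 2 higher and 0 lower.

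The 66 genes of other or unstated role exceeded control ovaries by 1.02 to 4.87 on the log2 scale (median 1.35). Among them were Cdk6, a cyclin D kinase (2.61-fold over control ovaries), the deacetylase gene Hdac8 on the X chromosome (2.41-fold), Bik, a promoter of apoptosis (3.63-fold), the kinesin gene Kif5c (2.18-fold) and the snoRNA host RNA Snhg1 (2.03-fold). Cdk6 was even within each group, with DKO levels of 0.22, 0.36 and 0.37, Smad4 (Stella) levels of -0.39, -0.71 and -0.20 and control ovary levels of -1.13, -1.06 and -1.01, without overlap among the 3. These Cdk6 levels average 2 probes, of which the brighter exceeded control ovaries by 0.71 and the dimmer by 2.05 on the log2 scale.

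The Smad4 (Stella) arrays were not used by the choice of genes, although the control ovary and DKO arrays with which they are compared were, so the group differences below are not independent of it. All 3 Smad4 (Stella) ovaries were on slide 3 and all control ovaries on slides 1 and 2. Genotype and slide thus cannot be told apart between these 2 groups. A fit with slide as a block joins slide 3 to the others only through the DKO arrays, which the choice used. The mean was higher in Smad4 (Stella) than in control ovaries for 168 of the 182 genes (92.3%, against 46.6% of all genes), with a median of 0.49 against -0.02 over all genes. On a scale where the control ovary mean is 0 and the DKO mean 100%, the median gene stood at 33.2% (quartiles 20 and 47), 37 genes at 50% or more and 14 below 0. Few of these differences passed the test across all genes. By limma, 3 of 182 genes (1.65%) were called higher in Smad4 (Stella) than in control ovaries, against 0.133% of all genes, and none was called lower, against 0.138%. At an unadjusted p below 0.05, 72 were higher (39.6%, against 8.34%), and all 3 Smad4 (Stella) arrays lay above all 3 control ovaries in 77 (42.3%, against 12.5%) and above all 6 control arrays in 41 (22.5%, against 4.47%). The number called depended on the fit. With slide as a block, with only these 2 groups in the fit, or without control ovary 2, any 1 testis or Smad4 (Stella) ovary 3, 0 genes were called. Without Smad4 (Stella) ovary 1 or 2 or control ovary 3, 1 gene was called, and without DKO ovary 1, 17 were. The sign of the difference changed under at least 1 other setting for 12 of the genes named here, none of them called, among them Irx1 without the filter on dim probes and Zscan5b, Diras1, Gpr176, Kcns1 and Magea6 with normexp background correction.

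**Figure D4:**
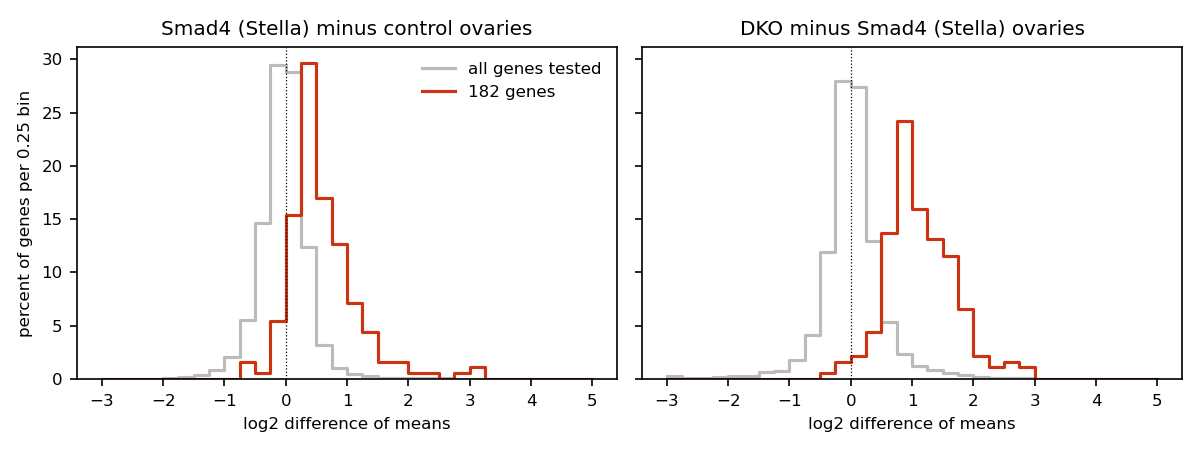
Distribution of the log2 difference between Smad4 (Stella) and control ovaries and between DKO and Smad4 (Stella) ovaries for the 182 genes and for all 18844 genes. The medians of the 182 genes are 0.49 and 1.08, and those of all genes are -0.02 and 0.01.

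The 3 genes called were Radx, Ephx2 and Ttpa. Radx, at -0.48, -1.32 and -0.89 in Smad4 (Stella) ovaries, was 1.79 ± 0.30 (SE) above control ovaries (limma adjusted p = 0.0484). Ephx2 was 1.15 ± 0.16 above (limma adjusted p = 0.0275). Ttpa, the vitamin E transfer protein gene, was at -2.90, -3.36 and -3.20 against -4.30, -4.18 and -3.90, a difference of 0.98 ± 0.16 (limma adjusted p = 0.0484). Btnl1, Pla2g2d, Ermard and Il20rb had a Smad4 (Stella) mean above the DKO mean, with DKO minus Smad4 (Stella) differences of -0.32, -0.20, -0.03 and -0.03, none of them called. Cd274 (PD-L1) went the other way, with Smad4 (Stella) levels of -3.94, -3.69 and -4.18, below all control ovaries (-3.47 to -3.33), and DKO levels of -1.66, -2.37 and -2.36.

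The 3 Smad4 (Stella) ovaries did not hold these genes alike. Array 1 was the highest of the 3 in 157 of the 182 genes (86.3%), against 39% of all genes, a comparison within the group that the choice did not touch. The median difference from the control ovary mean was 0.85 in ovary 1, 0.33 in ovary 2 and 0.32 in ovary 3. In the same order, 123, 50 and 52 of the 182 genes lay above every control array, against 11.4, 10.6 and 11.3% of all genes. Ovary 1 was also the brightest array, with a 75th percentile of 997 against 704 and 730, and had 68.8% of probes well above background against 64.2 and 63.9%. The part of this in its levels was not tested. Without ovary 1 the median over the 182 genes was 0.33. The DKO arrays had medians of 1.53, 1.6 and 1.41 over control ovaries. Their evenness cannot be set against that of the Smad4 (Stella) arrays, since the choice required each DKO array to lie above every control array. Over all genes, the median SD was 0.22 in DKO and 0.13 in Smad4 (Stella) ovaries. Among the control ovaries, the Cre-carrying ovary 1 was the highest in 101 of the 182 genes, against 35.5% of all genes. It was the only control ovary on slide 1 and the dimmest array.

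**Figure D5:**
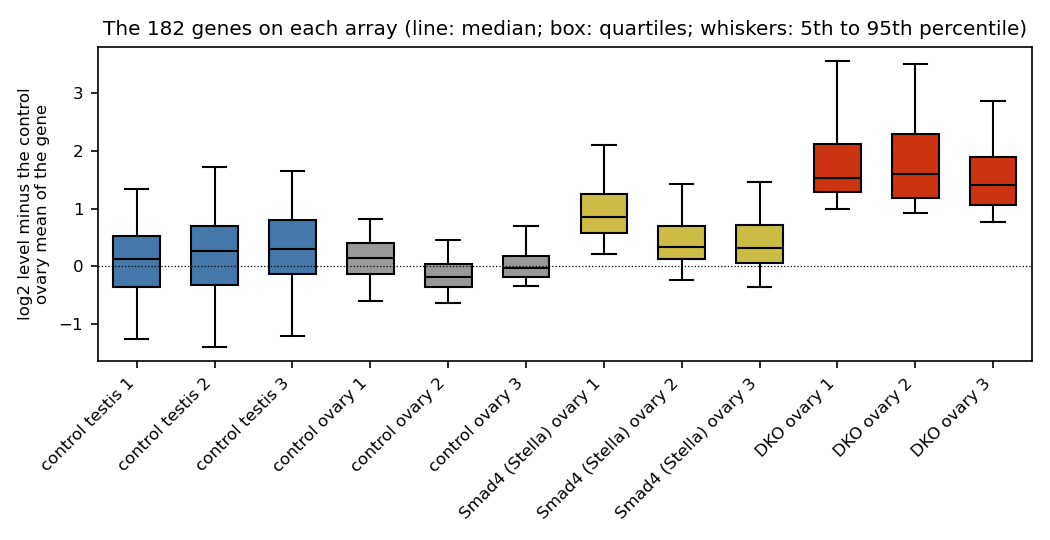
Log2 difference of each array from the control ovary mean, over the 182 genes, for the 12 arrays, with the median as a line, quartiles as a box and the 5th to 95th percentile as whiskers. Smad4 (Stella) ovary 1 has a median of 0.85, above ovaries 2 and 3 at 0.33 and 0.32, and the DKO ovaries have medians of 1.41 to 1.6.

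Between DKO and Smad4 (Stella) ovaries, which differ in the Stra8 genotype, the median of the 182 genes was 1.08 (0.01 over all genes), and 178 (97.8%, against 51.7% of all genes) had the higher mean in DKO ovaries. By limma, 115 genes (63.2%) were called higher in DKO ovaries, against 4.38% of all genes, and 0 lower, against 4.06%. All 3 DKO arrays lay above all 3 Smad4 (Stella) arrays in 153 genes (84.1%, against 16.8%). Within slide 3, DKO ovary 3 alone exceeded all 3 Smad4 (Stella) ovaries in 167 genes (91.8%, against 37.3%), with a median of 0.88 (0.04 over all genes). With slide as a block 29 genes were called, with normexp background correction 18, and 55 without Smad4 (Stella) ovary 2 or without ovary 3. Zscan5b (2.85 ± 0.68 SE), Spic (2.80 ± 0.33), Slc1a1 (2.67 ± 0.34) and Lpar3 (2.62 ± 0.39) were among those with the widest differences, with limma adjusted p of 0.0221, 0.000709, 0.000954 and 0.00228, although only 1 of 3 Smad4 (Stella) arrays was above background for Zscan5b and for Slc1a1. Genes of each role took part: 17 of 22 transcription factor genes, 13 of 17 ligand, receptor and signalling genes, 13 of 19 enzymes, 9 of 16 germ line genes, 9 of 16 immune genes, 7 of 14 pluripotency genes and 6 of 12 carriers and channels were called, as were 41 of the other 66.

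Control testes and control ovaries differed in some of the genes. By limma, 31 (17%) were called higher and 18 (9.89%) lower in testes than in control ovaries, against 17.2% and 16.8% of all genes, so the share of genes higher in testes was near that of the array as a whole. The choice used both groups, and this is a description. Of the genes called higher and lower, 5 and 2 were above background on no array of the dimmer group, Slc1a1, Cphx1 and Cfd among them, and no size is given for them. Among the others, Spic was higher in testes by 2.12 on the log2 scale, and Acsm3 (-3.02), Prap1 (-1.93), Trnp1 (-1.69) and Rasgrp1 (-1.38) were lower. The Rasgrp1 value averages 2 probes, of which 1 had means of -3.24 in testes and -0.61 in control ovaries. The other had means of -6.11 and -5.98, below any signal that passed as above background there. Lefty1 and 1700080O16Rik were also called higher in testes, with 1 and 2 of the control ovary arrays above background, and the latter had control ovary 2 at -8.05 beside -2.91 and -4.04. Acsm3, a medium-chain acyl-CoA synthetase gene, was high in all ovaries: 1.33, 1.1 and 0.12 in DKO, 0.63, 0.14 and 1.22 in Smad4 (Stella) and 0.12, -0.38 and -0.28 in control ovaries, against -2.87, -3.18 and -3.55 in testes.

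The X chromosome carried 23 of 181 genes with a known chromosome (12.7%), against 571 of 15731 named genes tested (3.63%). The median DKO difference from control ovaries was 1.75 for the X-linked genes and 1.43 for the 158 autosomal genes, and 14 and 101 of them were called higher in DKO than in Smad4 (Stella) ovaries. A total of 39 genes lay within 500 kb of another gene of the set, in 27 pairs. The share in other sets of tested genes of this size was not computed, so these counts do not show that neighbours are particular to this set. Some pairs are copies of 1 gene family. Among the pairs were those of the Magea genes, DXBay18 with Xlr5a, Cphx1 with Duxbl1, Phf11a with Phf11d, Dmrt1 with Dmrt3, Cd7 with Tex19.1, Kcns1 with Wfdc15a, Usp26 with 1700080O16Rik and, on proximal chromosome 7, those of Aurkc, Zim2, Epp13 and Zscan5b. Aurkc was at -0.12, 0.17 and -0.94 in DKO ovaries and nowhere above -2.74 in controls, while Epp13 was at -0.91, -0.72 and -1.87 and nowhere above -2.91. In both, and in Zscan5b, DKO ovary 3 was the lowest of the DKO arrays, as in 96 of the 182 genes.

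The promoters of the set were poorer in CpG than those of other genes. The ratio of observed to expected CpG in the 300 bases around the start had a median of 0.55 over the 149 genes, against 0.73 over the 12079 promoters, and 61 genes (40.9%) lay below 0.4, against 20.5%. The sequence TATAAA was in 21 promoters (14.1%, against 8.21%). The other motifs searched on both strands were CACGTG in 16 (10.7%, against 9.84%), TCCCGC in 39 (26.2%, against 33.8%), GGCGCC in 29 (19.5%, against 20.5%) and CNCCTCAG in 8 (5.37%, against 9.31%). The palindrome GTCTAGAC, bound by Smad proteins, was in 2 promoters (1.34%, against 0.265%). None of these motifs contains another. A match is a description of the sequence and not a bound site. The 2 promoters with the Smad palindrome, in capitals, are shown because Smad4 was the deleted gene (BC051019 at chr7:109723722-109724021, minus strand and Hist1h2bp, now H2bc22, at chr13:21787238-21787537, plus strand, GRCm38.p6, from RefSeq).
BC051019: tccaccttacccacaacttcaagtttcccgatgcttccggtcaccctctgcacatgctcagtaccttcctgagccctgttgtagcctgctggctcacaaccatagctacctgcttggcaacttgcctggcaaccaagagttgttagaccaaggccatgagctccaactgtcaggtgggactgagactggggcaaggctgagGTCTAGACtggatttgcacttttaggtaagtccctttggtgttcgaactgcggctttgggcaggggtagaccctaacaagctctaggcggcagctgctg
Hist1h2bp: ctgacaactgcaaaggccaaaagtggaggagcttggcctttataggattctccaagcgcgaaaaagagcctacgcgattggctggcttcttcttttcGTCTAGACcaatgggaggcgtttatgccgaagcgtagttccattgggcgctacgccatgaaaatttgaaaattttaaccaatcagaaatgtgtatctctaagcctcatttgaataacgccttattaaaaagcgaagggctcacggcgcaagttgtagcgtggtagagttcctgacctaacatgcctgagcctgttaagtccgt

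BC051019 had DKO levels of -2.25, -2.39 and -1.54, Smad4 (Stella) levels of -2.45, -2.96 and -3.53 and control ovary levels of -4.16, -4.82 and -4.13, with no overlap between the groups. The histone gene Hist1h2bp had DKO levels of -3.53, -3.55 and -3.91, Smad4 (Stella) levels of -3.96, -4.36 and -4.37 and control ovary levels of -4.79, -4.71 and -4.98, also without overlap. Neither was called between Smad4 (Stella) and control ovaries (limma adjusted p = 0.0784 and 0.0853).

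How firmly a gene belonged to the set varied. Without any 1 control or DKO array, 120 of the 182 genes still met the rule each time. Most of those lost left when DKO ovary 1 (29 genes) or control ovary 2 (25 genes) was removed. Vwce and Asb8, which were among the latter, rested on a single low value in control ovary 2: Vwce was at -8.15 there, beside -0.78 and -0.80 in the other control ovaries and -0.75, -0.71 and -0.67 in DKO ovaries. C8b had no value on control ovary 3, and its control ovary mean is over 2 arrays. With normexp background correction, which lowers contrasts of dim probes, 61 of the 182 genes met the rule. Of the 182, 42 had at least 2 probes, and in 40 of these every probe was higher in DKO ovaries than in both controls.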

How the data were processed

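RNA from 12 gonad pairs was hybridised by the authors to one-colour Agilent mouse arrays, designed on mm9, and read with Feature Extraction 11.0.1.1, per the file headers. The intensity values used were the processed signals the authors deposited for each array, background-subtracted by that software. The authors' value table holds the same intensity rounded, with no scaling between arrays.

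From these, log2(processed signal) minus each array's 75th percentile was computed, outlier spots were left out, probes well above background on all arrays of at least 1 group were kept (27311 of 41174) and probes of a gene were averaged, giving 18844 genes. A linear model was fitted over all 12 arrays (limma 3.58.1, R 4.3.3), with Benjamini-Hochberg adjustment over all genes. A gene was called at adjusted p below 0.05 and at least 1.5-fold. The fit was tested on simulated data. Tables were joined in Python 3.11.15 with pandas 2.3.3 and numpy 2.4.6. Array number limits the precision, and with 3 against 3 arrays an exact permutation test cannot give p below 0.1.

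The genes, lists and tests were chosen with earlier results of these data known. Genes were named by a rule: the 15 largest rises over the higher control, those called in Smad4 (Stella) ovaries, the 5 widest each way between testes and ovaries, list members, close neighbours, those nearest the limits, and those higher in Smad4 (Stella) than in DKO ovaries. Roles were assigned by hand, and the other genes named were chosen after their values were seen. Some genes that the rule names are not reported here. Promoters are from RefSeq (GRCm38.p6, 250 bases before to 50 after the start). Neighbours are by RefSeq gene position. Alternatives were quantile scaling, the unscaled deposited table, normexp, the brightest probe, no filter, a 2-fold threshold, blocks for slide and replicate, 2 groups only, the methods' t-test and the removal of each array in turn.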

Additional observations from a re-analysis of the deposited data

How the results depend on the processing

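The number of genes meeting the rule was 182 and became 65 with normexp background correction, which lowers contrasts of dim probes. It lay between 164 and 250 without each array, the highest without DKO replicate 3. Of the 182, genes called higher in Smad4 (Stella) than in control ovaries (3) became 0 with no filter, normexp, slide as a block, only the 2 groups or the methods' t-test, 11 with quantile scaling, and 0 to 17 without each array. Calls higher in DKO than in Smad4 (Stella) ovaries (115) became 74 with no filter, 14 with the unscaled deposited table, 18 with normexp, 29 with slide as a block, 1 with the methods' t-test, and 55 to 129 without each array. Calls between control testes and control ovaries (49) became 20 with the deposited table, 7 with normexp, 30 with the methods' t-test, 28 at 2-fold, and 37 to 53 without each array. The median Smad4 (Stella) difference from control ovaries (0.49) became 0.91 with the deposited table, 0.15 with normexp, 0.80 with slide as a block, and 0.33 to 0.61 without each array. The median DKO difference from Smad4 (Stella) ovaries (1.08) became 0.83 with the deposited table, 0.88 with slide as a block, and 0.96 to 1.27 without each array. Except where a construction is named, the cause was not tested.

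Replicate numbers did not pair the arrays. With each gene's group mean taken away, correlations between same-numbered arrays of different groups lay between -0.18 and 0.15. Those between differently numbered arrays lay between -0.17 and 0.14. With a replicate block, 0, 103 and 48 genes were called in the 3 comparisons in the order above.

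Some single genes changed sign. For Smad4 (Stella) minus control ovaries with normexp, 1700063H04Rik was at -0.058, Dctd at -0.045, Diras1 at -0.053, Gpr176 at -0.014, Kcns1 at -0.035, Magea6 at -0.039, Phox2a at -0.022, Zscan5b at -0.020 and Slc23a1 at -0.15. Dctd was at -0.081 with the brightest probe, Irx1 at -0.12 with no filter and Slc23a1 at -0.0054 with slide as a block. For DKO minus Smad4 (Stella) ovaries, Acsm3 became -0.056 with the deposited table, -0.024 with normexp and -0.55 with slide as a block, Btnl1 0.64, Ermard 0.15, Il20rb 0.50 and Pla2g2d 0.43 with normexp, and Ermard 0.11, Il20rb 0.077 and Pla2g2d 0.18 with slide as a block. Leaving out each array gave, for the first difference, 1700063H04Rik -0.14 to 0.63, Dctd -0.11 to 0.23, Magea6 -0.41 to 0.70, Phox2a -0.13 to 0.37, Slc23a1 -0.11 to 0.42, Trnp1 -0.052 to 0.37 and Zfp42 -0.0062 to 0.62, and for the second, Acsm3 -0.074 to 0.55, Ermard -0.097 to 0.044 and Il20rb -0.23 to 0.22.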
